A study of Mus musculus with 10 samples.

Results

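The collagen gene family was taken as every gene of the deposited count table whose symbol has the form Col, number, a, number. It held 44 of the 17737 genes listed, and the 37 with a mean of at least 10 counts over all tumors were compared. Collagens are secreted proteins whose chains wind around each other into a rope-like helix, and each gene encodes a single chain. Fibrillar collagens align into the fibrils that give connective tissue its tensile strength, whereas network collagens form sheets, among them the basement membranes under epithelia and around vessels. In solid tumors fibroblasts are known as the main source of fibrillar collagen, and type 4 collagen is laid down by several cell types, endothelial and tumor cells included.

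B16-F10, a melanoma line of mouse origin, was placed under the skin of C57BL/6 mice at the right flank, and the tumors were taken on day 11. In D69A tumors (5 tumors, numbered 1 to 5) the implanted cells overexpressed IL-18 with alanine in place of the aspartate at position 69, and in WT tumors (5 tumors, numbered 2 to 6) they overexpressed wild-type IL-18. IL-18 belongs to the IL-1 cytokines and becomes active when caspases cleave its precursor. Both lines thus carried an introduced Il18, no tumor without one was analysed here, and no label says whether either line was 1 clone or a pool. Nothing in the labels ties a tumor to its own mouse, so p-values reflect sample-to-sample spread, which may be technical.

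Total counts per tumor lay between 34400949 and 37578722 in D69A tumors and between 25904345 and 37556163 in WT tumors. The tissue was bulk, so fewer cells of a type and less RNA per cell cannot be told apart. Pigment cell genes, the defining markers of the melanoma line, summed to between 23065 and 29656 CPM (counts scaled to the library total) in D69A tumors and to between 15726 and 19386 CPM in WT tumors. Of the 6 genes, 4 were higher in D69A tumors and 2 passed in neither direction. All 4 leukocyte markers were lower, with sums of 84.6 to 219.7 CPM in D69A tumors and 301.4 to 810.1 CPM in WT tumors. The sum of 6 skeletal muscle markers spread widely, from 2.93 to 448.5 CPM in D69A tumors and from 4.59 to 1281 CPM in WT tumors. It was highest in WT tumors 4 and 3 and in D69A tumor 1, and the edgeR adjusted p of the 6 genes lay between 0.157 and 0.339. The 3 compared adipocyte markers had 18, 25 and 29 counts in all D69A tumors, against 285, 190 and 199 in all WT tumors. They reached the minimum of 10 counts only through their WT level, and 2 were called lower. Of 4 Schwann cell markers 2 were lower and 1 was higher, and the 1 compared keratinocyte marker passed in neither direction. These marker calls used an edgeR adjusted p of at most 0.05, at which 24.7% of all genes were lower and 18.8% higher.

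Collagen transcripts made up a smaller part of the library in D69A tumors. They took 0.303, 0.165, 0.196, 0.162 and 0.218% of all counts in D69A tumors 1 to 5, against 0.390, 0.725, 0.423, 0.767 and 0.469% in WT tumors 2 to 6. The groups did not overlap, and D69A tumor 1 stood nearest to WT tumor 2. The 95% Wilson intervals were narrow, for example 0.302 to 0.305% in D69A tumor 1 and 0.388 to 0.392% in WT tumor 2, and cover counting error only.

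Of the 37 compared members, 22 were lower and 4 were higher in D69A tumors at an adjusted p of at most 0.05, and 11 passed in neither direction. Over all 13926 genes tested the share past this threshold was 43.5%, with 24.7% lower and 18.8% higher. The median log2 fold change (D69A over WT) was -1.44 over the compared members, against 0.00 over all genes. All 22 lower members were lower by at least 2-fold and 12 by at least 4-fold, where the shares over all genes were 16 and 8.23%. In 19 members all D69A tumors lay below all WT tumors (17.4% of all genes), and in 4 all lay above (11.9%). Of the 4 members that rose, Col9a1 did so by at least 2-fold (0.503% of all genes).

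Not every member could differ freely under this filter. Col6a5, Col6a6, Col8a2 and Col24a1 had a mean under 10 counts in D69A tumors and were compared only through their WT level. Among the other 33 members, 19 were lower, 4 were higher and 10 passed in neither direction, with a median of -1.40. All 19 were lower by at least 2-fold and 9 by at least 4-fold (16 and 8.23% of all genes). In 16 of the 33 all D69A tumors lay below all WT tumors (17.4% of all genes). The 7 members not compared were Col4a6, Col6a4, Col17a1, Col19a1, Col22a1, Col25a1 and Col26a1, with mean counts between 0.2 and 8.0. Col22a1, at 8.0 counts, lay just outside the minimum and Col8a2, at 12.1 counts, just inside it. Col25a1 and Col26a1 had 0 counts in every D69A tumor, where 3 counts, the limit that a count of 0 allows, came to between 0.0798 and 0.0872 CPM.

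**Figure D1:**
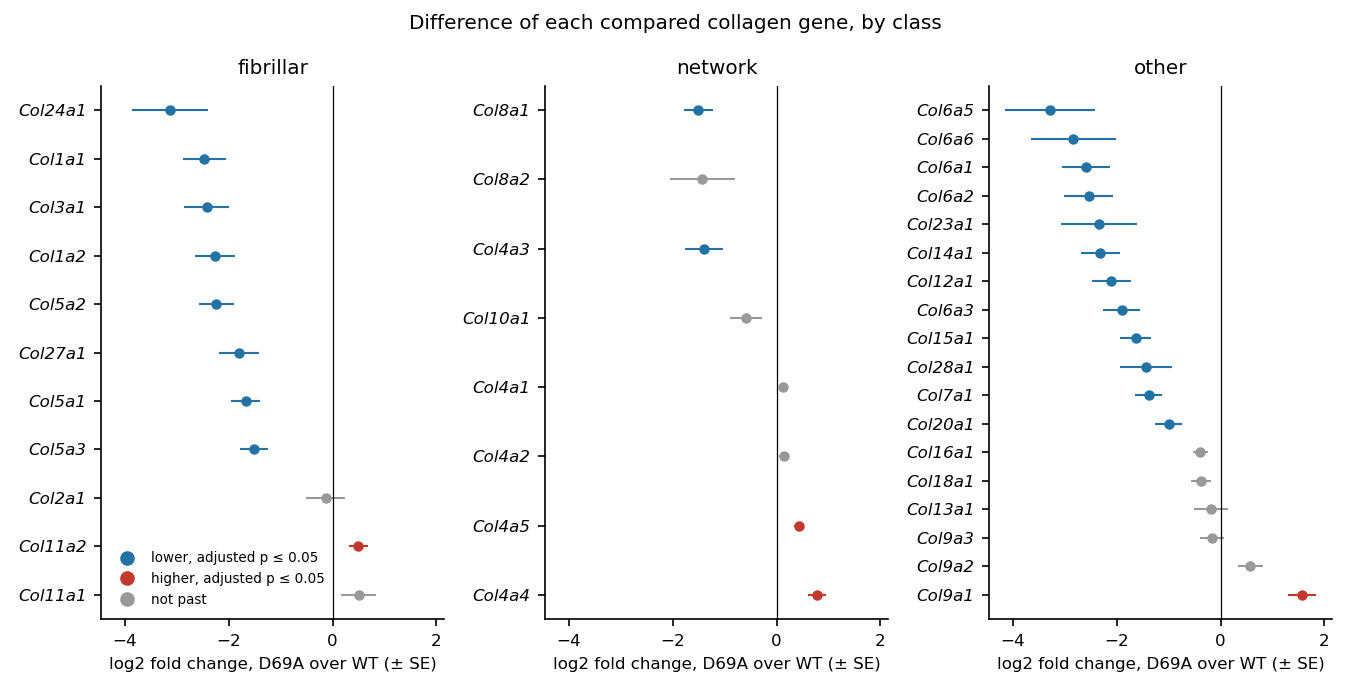
log2 fold change (D69A over WT) of each compared collagen gene, ± SE, in 3 panels for the fibrillar, network and other classes; blue marks lower, red higher and grey neither at an adjusted p of at most 0.05. Lower calls make up 8 of 11 fibrillar, 2 of 8 network and 12 of 18 other members, of which Col24a1, Col6a5 and Col6a6 were compared only through their WT level.

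By class, and leaving out the 4 members compared only through their WT level, 7 of 10 fibrillar members (types 1, 2, 3, 5, 11 and 27) were lower, 1 was higher and 2 passed in neither direction, with a median of -1.74. Of 7 network members (types 4, 8 and 10) 2 were lower, 2 were higher and 3 passed in neither direction, with a median of 0.13. Among the 16 members of the remaining types 10 were lower, 1 was higher and 5 passed in neither direction, with a median of -1.41. The shares over all genes were 24.7% lower and 18.8% higher, so the network calls lay near the background in both directions. With all compared members, lower calls came to 8 of 11 fibrillar, 2 of 8 network and 12 of 18 other members, and the network median was -0.23. The differences between these counts were not tested.

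The major fibrillar collagens were lower in D69A tumors by 4.80- to 5.54-fold. Col1a1 (chromosome 11, 94936224 to 94953042 in mm10), which encodes the alpha1 chain of type 1 collagen, the main protein of skin, tendon and bone, stood at 309.7, 71.6, 145.9, 79.3 and 168.6 CPM in D69A tumors 1 to 5. In WT tumors 2 to 6 it stood at 594.3, 1162, 572.8, 1254 and 715.3 CPM. Every D69A tumor lay below every WT tumor, with D69A tumor 1 the highest of its group and WT tumors 3 and 5 far above the other 3. The means were 155.0 ± 96.0 CPM in D69A tumors and 859.6 ± 324.1 CPM in WT tumors (SD, n = 5 each), 5.54-fold lower (log2 fold change -2.47, SE 0.41, quasi-likelihood test of edgeR, Benjamini-Hochberg adjusted p = 0.00124).

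Col1a2 (chromosome 6, 4504814 to 4541544), the alpha2 chain that joins Col1a1 in the same helix, had 351.0, 102.7, 163.9, 109.2 and 197.8 CPM in D69A tumors, against 542.9, 1183, 612.9, 1349.5 and 753.6 CPM in WT tumors. It was 4.80-fold lower (log2 fold change -2.26, SE 0.38, edgeR adjusted p = 0.00123). Col3a1 (chromosome 1, 45311538 to 45349706), the single chain of type 3 collagen that accompanies type 1 in soft tissue, had 573.2, 150.5, 266.0, 162.4 and 420.8 CPM in D69A tumors. Its WT tumors had 943.7, 2260.0, 1086, 2747 and 1396 CPM, so that it was 5.36-fold lower (log2 fold change -2.42, SE 0.43, edgeR adjusted p = 0.00161). Neither gene overlapped between the groups, and in both, as for Col1a1, D69A tumor 1 was highest in its group and WT tumors 3 and 5 were highest in theirs.

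**Figure D2:**
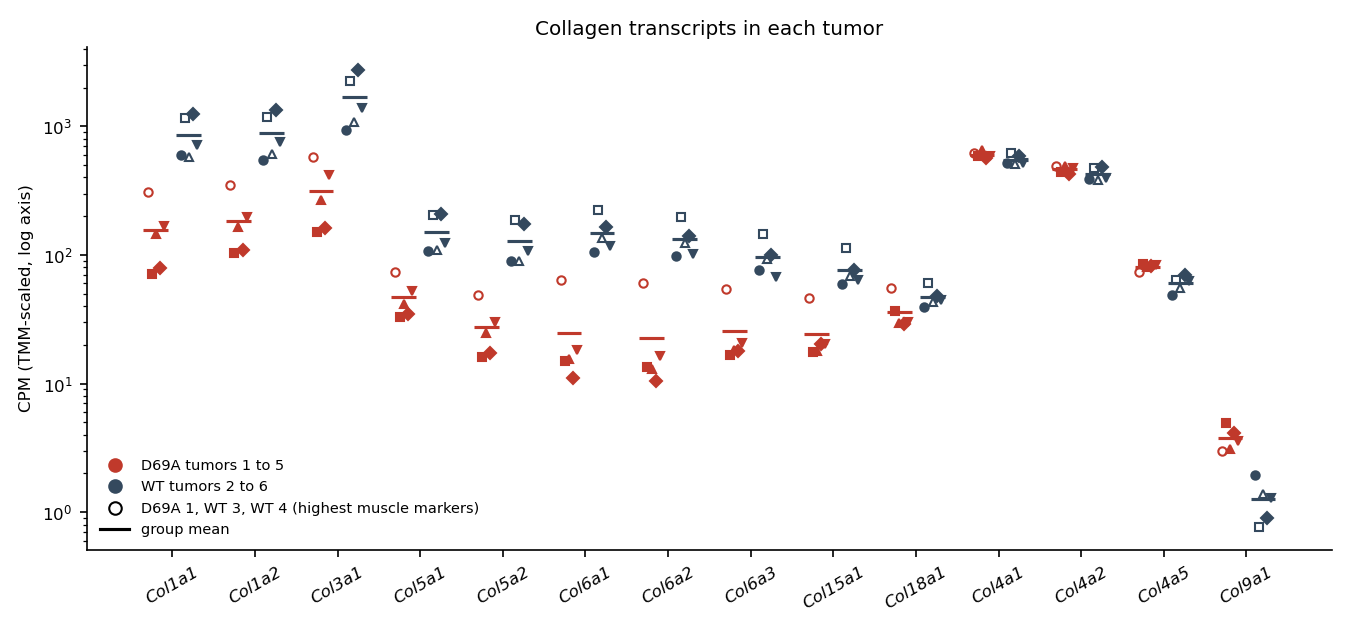
TMM-scaled CPM of 14 collagen genes in each tumor on a log axis; D69A tumors in red, WT tumors in dark blue, 1 marker shape per tumor, bars for group means, and open symbols for the 3 tumors highest in skeletal muscle markers. The fibrillar and type 6 genes separate the groups, Col4a1 and Col4a2 overlap between the groups, and Col9a1 lies higher in D69A tumors.

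The start regions of the fibrillar genes are shown because the genes moved together. RefSeq windows on GRCm38.p6, the assembly behind mm10, run from 250 bases before the start site to 50 bases from it on, and were found for 35 of the 44 members. Col1a1 had no entry. The Col1a2 window is chr6:4505368-4505667 and the Col3a1 window chr1:45311288-45311587, both on the plus strand and written 5′ to 3′. Capitals mark exact matches, on either strand, to 1 of 3 motifs. These are the box named for its letters CCAAT, the common letters TATAAA of the TATA box, and the letters GGGCGG of the box bound by Sp1. No 2 matches overlap in the windows shown.
Col1a2: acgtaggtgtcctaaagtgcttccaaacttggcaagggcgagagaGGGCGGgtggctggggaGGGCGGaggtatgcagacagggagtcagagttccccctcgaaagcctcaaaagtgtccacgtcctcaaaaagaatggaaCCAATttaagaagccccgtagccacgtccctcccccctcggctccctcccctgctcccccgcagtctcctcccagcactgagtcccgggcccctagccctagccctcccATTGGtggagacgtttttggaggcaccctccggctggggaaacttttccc
Col3a1: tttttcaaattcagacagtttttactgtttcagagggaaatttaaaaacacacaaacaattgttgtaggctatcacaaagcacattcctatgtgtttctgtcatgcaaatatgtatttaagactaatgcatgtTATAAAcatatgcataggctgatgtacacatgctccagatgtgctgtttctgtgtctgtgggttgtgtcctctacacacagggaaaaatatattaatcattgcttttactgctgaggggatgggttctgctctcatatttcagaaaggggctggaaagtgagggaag
Col1a2 held CCAAT at -109 to -105 from the start site and, on the other strand, at 0 to 4, with GGGCGG at -205 to -200 and at -188 to -183. Col3a1 held TATAAA at -117 to -112. Of the 38 collagen windows 34.2% held CCAAT, 13.2% TATAAA and 60.5% GGGCGG. The shares were 37.4, 13.6 and 35.7% over 32851 windows of the same length, leaving out 1 chromosome that holds none of the members. Among the genes with a window, GGGCGG was present in 10 of 17 called lower, 2 of 4 called higher and 7 of 9 called neither. These letters are a description and show no binding.

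Type 5 collagen, a minor fibrillar type that is built into type 1 fibrils and limits their width, was lower in all 3 of its chains. Col5a2 had 49.0, 16, 24.5, 17.1 and 29.9 CPM in D69A tumors, against 89.8, 187.4, 89.5, 173.4 and 106.6 CPM in WT tumors, and was 4.73-fold lower (log2 fold change -2.24, SE 0.34, edgeR adjusted p = 0.000891). Col5a1 had 74.1, 33.1, 41.5, 34.9 and 52.5 CPM in D69A tumors, against 107.7, 203.5, 109.3, 209.3 and 124.5 CPM in WT tumors, and was 3.19-fold lower (log2 fold change -1.68, SE 0.27, edgeR adjusted p = 0.00112). Neither chain overlapped between the groups. The alpha3 chain gene Col5a3 averaged 29.3 ± 9.53 CPM in D69A tumors and 83.7 ± 27.6 CPM in WT tumors (SD, n = 5 each), 2.86-fold lower and again without overlap.

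The remaining fibrillar members were scarce. Col27a1, which encodes a type 27 chain known from developing cartilage, averaged 1.34 ± 0.706 CPM in D69A tumors and 4.67 ± 1.64 CPM in WT tumors (SD, n = 5 each), 3.49-fold lower without overlap. Col24a1, the type 24 chain known from developing bone, had 0.347, 0, 0.180, 0 and 0.163 CPM in D69A tumors, against 0.801, 1.80, 1.01, 1.60 and 1.07 CPM in WT tumors. With 25 counts in all D69A tumors and 223 in all WT tumors it was 8.82-fold lower in the fit (log2 fold change -3.14, SE 0.73), and -3.82 on the log2 scale without D69A tumor 1.

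Fibroblast markers moved with these genes. Of 10 markers, none of them a collagen gene, 9 were lower in D69A tumors and 7 of these without overlap, while Pdgfrb, a receptor also carried by pericytes, passed in neither direction. Over all genes 24.7% were lower, and in 17.4% all D69A tumors lay below all WT tumors. Their sum lay between 62.5 and 154.0 CPM in D69A tumors and between 207.5 and 750.8 CPM in WT tumors. D69A tumor 1 was the highest of its group and WT tumor 5 the highest of all. The part of fibroblast content in the fibrillar difference was not tested.

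Type 6 collagen, which forms beaded filaments around cells and links them to the fibrils, was lower in the 3 chains that had at least 10 counts on average in both groups. Col6a1 (chromosome 10, 76708792 to 76726168) had 63.7, 14.9, 15.6, 11.1 and 18.1 CPM in D69A tumors, against 105.2, 222.9, 135.3, 164.3 and 118.0 CPM in WT tumors. Col6a2, its neighbor on the same chromosome, had 60.3, 13.5, 13, 10.6 and 16.5 CPM in D69A tumors, against 98.8, 196.9, 124.3, 141.4 and 102.5 CPM in WT tumors. D69A tumor 1 stood far above the other 4 D69A tumors and still below every WT tumor. The log2 fold changes were -2.59 (SE 0.47, edgeR adjusted p = 0.00168) for Col6a1 and -2.54 (SE 0.48, edgeR adjusted p = 0.00197) for Col6a2. Without D69A tumor 1 they were -3.32 and -3.31.

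Col6a3, the longest of the classic type 6 chains, had 54.6, 16.7, 18.4, 18 and 20.6 CPM in D69A tumors, against 75.8, 146.1, 93.3, 99.3 and 67.2 CPM in WT tumors. Its groups did not overlap either, with a smaller difference of 3.75-fold (log2 fold change -1.91, SE 0.35, edgeR adjusted p = 0.00187). The alternative chains Col6a5 and Col6a6, compared only through their WT level, had 40 and 35 counts in all D69A tumors, against 395 and 251 in all WT tumors. Col6a5 was called lower at a log2 fold change of -3.29 (SE 0.87), or -4.87 without D69A tumor 1, and Col6a6 at -2.84 (SE 0.82).

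The main basement membrane chains showed no detectable difference. Col4a1 (chromosome 8, 11198423 to 11312826), the alpha1 chain of the type 4 network, had 618.0, 587.1, 657.8, 562.9 and 589.2 CPM in D69A tumors, against 514.2, 621.3, 509.8, 589.9 and 521.9 CPM in WT tumors. The groups overlapped, and the log2 fold change was 0.13 (SE 0.07, edgeR adjusted p = 0.164). Col4a2 (chromosome 8, 11312805 to 11449287), its partner chain, had 490.0, 438.0, 493.7, 423.4 and 476.9 CPM in D69A tumors, against 386.7, 470.4, 379.2, 485.5 and 394.3 CPM in WT tumors. Its groups overlapped as well (log2 fold change 0.13, SE 0.08, edgeR adjusted p = 0.220). Both varied little within a group: the SD of Col4a1 was 6.02% of the mean in D69A tumors and 9.23% in WT tumors, against 62.0 and 37.7% for Col1a1.

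Col4a1 and Col4a2 lie head to head on opposite strands with start sites 21 bases apart, so 1 window holds the starts of both. It is shown because these chains did not pass where the fibrillar ones did. The Col4a2 window, chr8:11312555-11312854 on the plus strand of GRCm38.p6, comes from RefSeq with capitals as above.
Col4a2: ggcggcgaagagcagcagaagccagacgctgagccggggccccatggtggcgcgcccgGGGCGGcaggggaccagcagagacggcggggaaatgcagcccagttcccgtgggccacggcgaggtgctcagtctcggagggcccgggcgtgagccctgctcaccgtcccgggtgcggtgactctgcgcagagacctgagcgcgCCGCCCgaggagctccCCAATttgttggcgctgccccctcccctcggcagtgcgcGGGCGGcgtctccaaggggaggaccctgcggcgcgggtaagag
CCAAT lay at -32 to -28 and GGGCGG at -192 to -187, -48 to -43 and 7 to 12 from the Col4a2 start site, and 73.7% of the bases were G or C, against 61.0% in the Col1a2 window and 37.7% in the Col3a1 window.

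The minor type 4 chains, which form the specialised networks of kidney, lung and eye membranes, did not move one way. Col4a5 (chromosome X, 141475385 to 141689234) rose to 73.5, 85.1, 80.5, 81.4 and 84.0 CPM in D69A tumors, against 48.5, 64.3, 55.2, 70.3 and 63.0 CPM in WT tumors. All D69A tumors lay above all WT tumors, a 1.34-fold difference (log2 fold change 0.43, SE 0.09, edgeR adjusted p = 0.00437). Col4a4 (chromosome 1, 82448423 to 82586849) rose to 5.0, 7.85, 5.59, 5.86 and 5.27 CPM in D69A tumors, against 3.56, 2.56, 3.58, 4.25 and 3.29 CPM in WT tumors, again without overlap (log2 fold change 0.78, SE 0.17, edgeR adjusted p = 0.00501).

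Col4a3, whose chain assembles with those of Col4a4 and Col4a5, differed the other way. It had 2.64, 1.73, 2.25, 1.45 and 1.76 CPM in D69A tumors, against 1.5, 6.14, 4.32, 7.03 and 6.96 CPM in WT tumors. WT tumor 2 lay within the D69A range and the other 4 WT tumors above it. Col4a3 was called lower (log2 fold change -1.40, SE 0.37, edgeR adjusted p = 0.0112), and limma-voom did not call it (adjusted p = 0.0630). Col4a3 and Col4a4 lie head to head on chromosome 1 with start sites 72 bases apart. Of the Col4a3 exon sequence 5.65% lies opposite another gene, and whether the counting used strand is not given, so reads of both genes cannot be told apart there. The like share was 6.07% for Col9a3 and 2.50% for Col5a1, and 1.54% of Col20a1 and 1.44% of Col3a1 lies under another gene of the same strand.

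Vessel markers were lower in D69A tumors. All 6 endothelial markers were lower, 3 of them without overlap, with sums of 131.4 to 181.1 CPM in D69A tumors and 208.2 to 274.8 CPM in WT tumors. Of 6 pericyte and smooth muscle markers 4 were lower, 3 of them without overlap, and 2 passed in neither direction. Their sums were 38.0 to 53.9 CPM in D69A tumors and 68.1 to 92.9 CPM in WT tumors. The shares over all genes were 24.7% lower and 17.4% with all D69A tumors below all WT tumors. Pigment cell markers were higher, as given above. The part of any of these cell types in the type 4 levels was not tested.

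The short-chain network collagens, known from the vessel wall, the cornea and the growth plate, were of lower abundance. Col8a1 had 17.3, 7.27, 7.21, 10.7 and 8.06 CPM in D69A tumors, against 17.9, 35.9, 28.7, 35.1 and 26.2 CPM in WT tumors. It was 2.84-fold lower without overlap, although D69A tumor 1 and WT tumor 2 nearly touched (log2 fold change -1.51, SE 0.27, edgeR adjusted p = 0.00166). Col8a2 had 33 counts in all D69A tumors and 88 in all WT tumors, with a log2 fold change of -1.43 that did not pass (SE 0.63, edgeR adjusted p = 0.0892), but did pass without D69A tumor 1 (-2.02, adjusted p = 0.0245). Col10a1, a marker of hypertrophic cartilage, averaged 1.18 ± 0.422 CPM in D69A tumors and 1.79 ± 0.512 CPM in WT tumors (SD, n = 5 each) and did not pass (edgeR adjusted p = 0.139).

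Per kilobase of model transcript, the group means of the most abundant collagens ranked differently in the groups. On this scale of CPM per kb the highest levels in D69A tumors belonged to Col4a1 (91.2 ± 5.49), Col4a2 (72.0 ± 4.93), Col3a1 (56.5 ± 32.5), Col1a2 (34.6 ± 18.9) and Col1a1 (26.1 ± 16.2). In WT tumors they belonged to Col3a1 (303.1 ± 140.6), Col1a2 (166.1 ± 66.9), Col1a1 (145.0 ± 54.7), Col4a1 (83.4 ± 7.69) and Col4a2 (65.6 ± 7.84; SD, n = 5 each). Within tumors, Col3a1 stood above Col1a2, Col1a2 above Col1a1 and Col4a1 above Col4a2 in all 5 D69A tumors and in all 5 WT tumors. Col4a1 stood above Col3a1 in 4 of 5 D69A tumors and in 0 of 5 WT tumors. The exception was D69A tumor 1, with 93.4 CPM per kb of Col4a1 and 103.0 CPM per kb of Col3a1. Col4a2 stood above Col3a1 in D69A tumors 2, 3 and 4 and in 0 of 5 WT tumors.

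As a share of the summed collagen level, fibrillar members held 49.1, 25.6, 35.1, 27.8 and 43.0% in D69A tumors, against 62.8, 71.2, 62.9, 76.4 and 68.6% in WT tumors. Network members held 37.0, 63.7, 56.9, 62.6 and 48.7% in D69A tumors, against 23, 14.7, 21.3, 13.7 and 19.4% in WT tumors. No D69A tumor overlapped a WT tumor in either share. The summed network level itself lay between 166.5 and 191.1 CPM per kb in D69A tumors and between 149.6 and 185.5 CPM per kb in WT tumors, while the summed fibrillar level lay between 69.3 and 245.8 CPM per kb in D69A tumors and between 409.3 and 1028 CPM per kb in WT tumors.

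**Figure D3:**
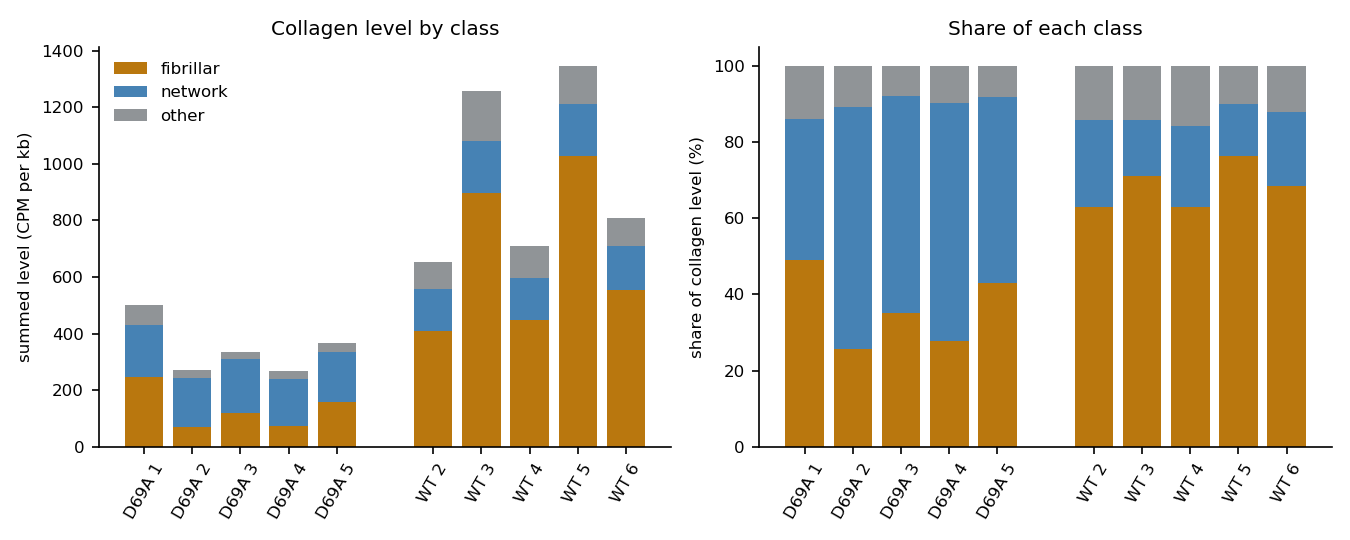
Summed level of the collagen classes in each tumor, in CPM per kb (left) and as a share of the tumor's collagen level in percent (right); D69A tumors stand left of WT tumors. The network part lies between 149.6 and 191.1 CPM per kb in all 10 tumors, and the fibrillar part is smaller in every D69A tumor than in any WT tumor.

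Ratios of 2 chains within a tumor do not depend on how libraries are scaled, and 8 pairs were compared. The pairs were chosen with earlier results known and use the same counts as the fold changes above. They are thus no separate support for those fold changes. The fibrillar against the basement membrane chain gave the widest gap: the log2 count ratio of Col4a1 to Col1a1 was 1.0, 3.04, 2.17, 2.83 and 1.81 in D69A tumors, against -0.21, -0.90, -0.17, -1.09 and -0.45 in WT tumors. It differed by 2.73 between the group means (two-sided exact permutation test over 252 assignments, p = 0.00794, the smallest these group sizes allow, adjusted p = 0.0127 over 8 pairs). Within the type 4 heterotrimer the ratio of Col4a2 to Col4a1 averaged -0.38 ± 0.05 in D69A tumors and -0.39 ± 0.06 in WT tumors (SD, n = 5 each), a difference of 0.01 (exact permutation adjusted p = 0.929).

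Chains of 1 molecule did not always move by 1 factor. The ratio of Col1a2 to Col1a1 was 0.18, 0.52, 0.17, 0.46 and 0.23 in D69A tumors, against -0.13, 0.03, 0.10, 0.11 and 0.07 in WT tumors, so that all D69A tumors lay above all WT tumors (difference 0.28, exact permutation p = 0.00794, adjusted p = 0.0127). The ratio of Col5a2 to Col5a1 averaged -0.85 ± 0.19 in D69A tumors and -0.23 ± 0.07 in WT tumors (difference -0.61, same p and adjusted p in the exact permutation test, n = 5 each). That of Col6a3 to Col6a1 averaged 0.21 ± 0.33 in D69A tumors and -0.63 ± 0.14 in WT tumors (difference 0.84, again the smallest exact permutation p, n = 5 each). Col6a2 against Col6a1 differed by 0.02 (exact permutation adjusted p = 0.717) and Col3a1 against Col1a1 by 0.11 (exact permutation adjusted p = 0.497), both with overlapping groups.

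**Figure D4:**
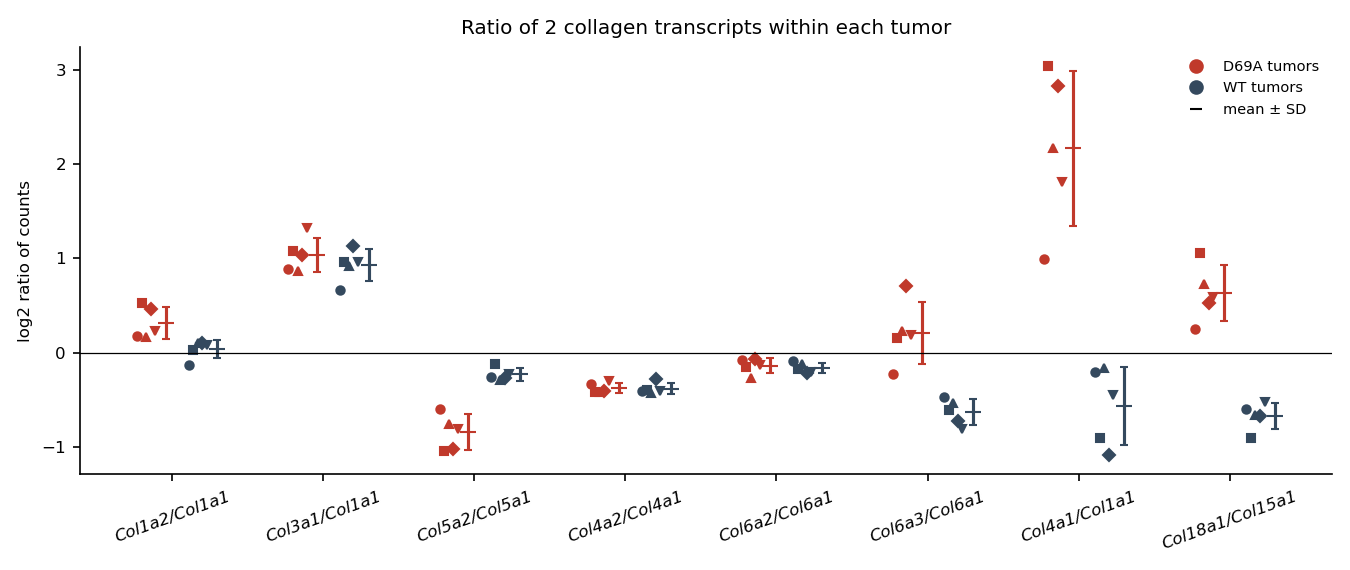
log2 ratio of the counts of 2 collagen chains in each tumor for 8 pairs; D69A tumors in red to the left of WT tumors in dark blue, with mean ± SD beside them. Col4a1/Col1a1 shows the widest gap, and Col3a1/Col1a1, Col4a2/Col4a1 and Col6a2/Col6a1 overlap.

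The multiplexins of the vessel basement membrane zone split. Col15a1 had 46.6, 17.5, 18, 20.3 and 20.2 CPM in D69A tumors, against 59.8, 113.7, 68.1, 75.7 and 64.4 CPM in WT tumors, and was 3.11-fold lower without overlap (log2 fold change -1.64, SE 0.29, edgeR adjusted p = 0.00157). Col18a1, from which the fragment endostatin is cut, had 55.4, 36.4, 29.7, 29.2 and 30.4 CPM in D69A tumors, against 39.5, 60.5, 43.1, 47.6 and 44.6 CPM in WT tumors. D69A tumor 1 alone lay within the WT range, and the difference did not pass (log2 fold change -0.38, SE 0.18, edgeR adjusted p = 0.121). Without that tumor it passed (-0.58, adjusted p = 0.00407). The log2 count ratio of Col18a1 to Col15a1 averaged 0.63 ± 0.30 in D69A tumors and -0.67 ± 0.14 in WT tumors, a difference of 1.30 with no overlap (exact permutation p = 0.00794, adjusted p = 0.0127, n = 5 each).

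The fibril-associated collagens, which sit on the surface of fibrils, went in both directions. Col14a1, found on type 1 fibrils of skin and tendon, had 11.8, 4.09, 5.44, 4.41 and 7.52 CPM in D69A tumors, against 18.9, 45, 21.4, 54.9 and 25.9 CPM in WT tumors (log2 fold change -2.32, SE 0.38, edgeR adjusted p = 0.00113). Col12a1, a close relative in the same places, averaged 4.68 ± 2.31 CPM in D69A tumors and 20.2 ± 9.38 CPM in WT tumors (SD, n = 5 each), 4.31-fold lower. Neither overlapped between the groups. Col20a1 averaged 1.04 ± 0.163 CPM in D69A tumors and 2.08 ± 0.678 CPM in WT tumors (SD, n = 5 each) and was lower by 1.0 on the log2 scale (edgeR adjusted p = 0.0102). Col16a1 had 30.9, 21.7, 19.1, 20.1 and 21.5 CPM in D69A tumors, against 25.8, 34.3, 28.1, 35.5 and 24.6 CPM in WT tumors. Only D69A tumor 1 lay within the WT range, and the log2 fold change of -0.39 did not pass (SE 0.15, edgeR adjusted p = 0.0557). It passed without D69A tumor 1 (adjusted p = 0.00597), WT tumor 2 (adjusted p = 0.0453) or WT tumor 6 (adjusted p = 0.0400). It also passed under DESeq2 (adjusted p = 0.0402), limma-voom without (adjusted p = 0.0459) and with sample weights (adjusted p = 0.0136) and edgeR with upper quartile scaling (adjusted p = 0.0489).

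Col9a1 was the member with the largest increase. Its chain belongs to type 9 collagen, which coats the type 2 fibrils of cartilage, and the gene (chromosome 1, 24177610 to 24252684) rose to 2.99, 4.96, 3.09, 4.14 and 3.58 CPM in D69A tumors, against 1.94, 0.764, 1.38, 0.909 and 1.30 CPM in WT tumors. All D69A tumors lay above all WT tumors, with WT tumor 2 nearest. The means were 3.75 ± 0.813 CPM in D69A tumors and 1.26 ± 0.459 CPM in WT tumors (SD, n = 5 each), 2.98-fold higher (log2 fold change 1.57, SE 0.27, edgeR adjusted p = 0.00137). The counts behind it were 665 in all D69A tumors and 223 in all WT tumors.

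Col9a1 has 2 start sites in RefSeq, an upstream one and one inside the gene, and gene counts do not tell their transcripts apart. Both windows are shown because it was the only member to rise by at least 2-fold. They are chr1:24177360-24177659 (upstream) and chr1:24194953-24195252 (inside), on the plus strand of GRCm38.p6, with capitals as above.
Col9a1 upstream: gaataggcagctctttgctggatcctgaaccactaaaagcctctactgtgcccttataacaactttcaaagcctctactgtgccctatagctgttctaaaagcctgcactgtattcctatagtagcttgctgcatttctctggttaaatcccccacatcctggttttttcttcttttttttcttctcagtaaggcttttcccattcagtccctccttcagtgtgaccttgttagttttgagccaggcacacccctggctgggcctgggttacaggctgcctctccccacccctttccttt
Col9a1 inside: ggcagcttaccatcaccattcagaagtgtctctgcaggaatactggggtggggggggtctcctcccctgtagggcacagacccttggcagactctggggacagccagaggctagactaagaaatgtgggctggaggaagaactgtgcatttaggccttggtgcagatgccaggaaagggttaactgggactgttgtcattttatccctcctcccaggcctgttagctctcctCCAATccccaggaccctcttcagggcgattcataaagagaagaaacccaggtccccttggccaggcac
The upstream window held none of the 3 motifs, and the inside window held CCAAT at -18 to -14. Their G and C content was 47.3 and 55.7%.

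Most other cartilage collagens passed in neither direction. Col9a2 had 1.71, 2.34, 2.67, 2.31 and 2.31 CPM in D69A tumors, against 1.70, 1.15, 1.88, 0.963 and 1.95 CPM in WT tumors, a log2 fold change of 0.57 that did not pass (SE 0.24, edgeR adjusted p = 0.0773) but passed narrowly without D69A tumor 1 (adjusted p = 0.0498). Col9a3, the remaining chain of type 9, averaged 2.56 ± 0.715 CPM in D69A tumors and 2.86 ± 0.593 CPM in WT tumors (SD, n = 5 each; log2 fold change -0.16, edgeR adjusted p = 0.601). Thus 1 of the 3 chains of that heterotrimer was called. Col11a2, of the minor fibrillar type 11, rose to 4.76, 3.23, 3.64, 3.28 and 3.69 CPM in D69A tumors, against 3.10, 2.54, 3.21, 2.06 and 2.26 CPM in WT tumors. The lowest D69A value stood just above the highest WT value, and the call was narrow (log2 fold change 0.50, SE 0.18, edgeR adjusted p = 0.0459). It was lost, at adjusted p between 0.0579 and 0.0950, without D69A tumor 1, 3 or 5 or without WT tumor 3, 5 or 6. Upper quartile scaling (edgeR adjusted p = 0.0705) and scaling by library size only (0.0847) lost it as well. Of 23 alternatives 15 did not call Col11a2.

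Col11a1 averaged 0.60 ± 0.236 CPM in D69A tumors and 0.421 ± 0.110 CPM in WT tumors, and Col2a1, the defining fibril of cartilage, 0.996 ± 0.387 CPM in D69A tumors and 1.09 ± 0.441 CPM in WT tumors (SD, n = 5 each). Neither passed (edgeR adjusted p = 0.256 and 0.797). Among 5 cartilage markers, Acan, Comp and Matn1 were at or near 0, with no count in 6, 5 and 6 of the 10 tumors. Matn3, a matrix adaptor, was higher in D69A tumors (log2 fold change 0.45, edgeR adjusted p = 0.0449). Sox9, a regulator of cartilage genes, was called lower (log2 fold change -2.34, edgeR adjusted p = 0.00211). With 49 counts in all D69A tumors and 246 in all WT tumors, Sox9 was compared only through its WT level. The summed markers lay between 10.6 and 15.4 CPM in D69A tumors and between 9.50 and 13.4 CPM in WT tumors.

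Of the last members, Col7a1, which forms the fibrils that anchor the epidermis, averaged 0.825 ± 0.124 CPM in D69A tumors and 2.16 ± 0.674 CPM in WT tumors (SD, n = 5 each) and was 2.62-fold lower without overlap. The membrane-spanning Col23a1 had 1.66, 0.279, 0.120, 0.118 and 0.217 CPM in D69A tumors, against 1.03, 4.31, 2.78, 2.51 and 1.64 CPM in WT tumors. D69A tumor 1 lay among the WT tumors. Its call (log2 fold change -2.34, SE 0.73, edgeR adjusted p = 0.0236) strengthened to -3.71 without that tumor and was lost without D69A tumor 2, 4 or 5 or WT tumor 3 (adjusted p between 0.0502 and 0.0586). Col28a1, a chain known from peripheral nerve, rested on 50 counts in all D69A tumors and 138 in all WT tumors. It was called lower with overlapping groups (log2 fold change -1.44, SE 0.50, edgeR adjusted p = 0.0381). The call was lost without D69A tumor 1, 2, 3 or 5 or WT tumor 3 or 5 (adjusted p between 0.0614 and 0.104). The membrane collagen Col13a1 averaged 0.666 ± 0.156 CPM in D69A tumors and 0.757 ± 0.301 CPM in WT tumors (SD, n = 5 each; edgeR adjusted p = 0.666).

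The same tumors stood high or low across members. Of the 22 members called lower, 19 had their highest D69A value in D69A tumor 1 and 12 their lowest in D69A tumor 2. In the WT group 12 were highest in WT tumor 3 and 8 in WT tumor 5, and 14 were lowest in WT tumor 2. The SD within D69A tumors was a median of 51.8% of the mean for the members called lower and 17.8% for the 4 called higher, against 35.8 and 18.5% within WT tumors. D69A tumor 1 was also the highest D69A tumor in the sums of fibroblast, pericyte, endothelial, skeletal muscle and leukocyte markers. Without the 3 tumors highest in muscle markers, a comparison added after the data were seen, 22 of 36 compared members were lower and 3 higher, and 20 were called lower both ways. The 24.7% lower and 18.8% higher over all genes come from all 10 tumors and are no background for these counts. How these counts stand against all genes in the smaller comparison was not tested.

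Genes that fold, export, trim and crosslink collagen were in part lower in D69A tumors. Of 32 compared members of a 34-gene assembly list, 16 were lower, 1 was higher and 15 passed in neither direction, with a median of -0.27, against 24.7% lower and 18.8% higher over all genes. All D69A tumors lay below all WT tumors in 11 (17.4% over all genes). The 6 with the smallest p were Adamts14, P3h4, Adamts2, Lox, P4ha3 and Loxl1. Adamts2, which removes the N-terminal propeptide of type 1 and 3 chains, averaged 6.43 ± 2.96 CPM in D69A tumors and 30.3 ± 12.7 CPM in WT tumors (SD, n = 5 each; a log2 fold change of -2.23 with an SE of 0.35, edgeR adjusted p = 0.000994). Its relative Adamts14 was lower by 1.35 on the log2 scale (SE 0.21). The lysyl oxidases Lox (-1.65, SE 0.29) and Loxl1 (-2.43, SE 0.43), which start the crosslinking of fibrils, were lower as well. P4ha3, a minor subunit of prolyl hydroxylase, changed by -2.65 (SE 0.46) and P3h4, a cofactor of lysine hydroxylation, by -1.85 (SE 0.29).

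Serpinh1, the collagen chaperone HSP47, averaged 685.8 ± 67.5 CPM in D69A tumors and 624.7 ± 63.7 CPM in WT tumors (SD, n = 5 each; log2 fold change 0.13, edgeR adjusted p = 0.233). The main prolyl hydroxylase subunits P4ha1 (log2 fold change -0.11) and P4hb (-0.12), the lysyl hydroxylases Plod1 (0.13) and Plod2 (0.11), and Crtap (0.05) and Ppib (0.05) of the prolyl 3-hydroxylase complex did not pass. P4ha2 (log2 fold change -0.69), Fkbp10 (-0.28) and Plod3 (-0.19), all modifiers or chaperones of new chains, were called lower with overlapping groups. The P4ha2 call was lost without D69A tumor 2, 4 or 5 or WT tumor 3 (edgeR adjusted p between 0.0527 and 0.0610), the Plod3 call without D69A tumor 2, 3, 4 or 5 or WT tumor 3 (0.0627 to 0.0981), and the Fkbp10 call without any 1 of the D69A tumors or without WT tumor 2 or 3 (0.0570 to 0.117). Mia3, which loads collagen into export vesicles, was the 1 member that rose. It averaged 115.3 ± 3.82 CPM in D69A tumors and 104.0 ± 5.95 CPM in WT tumors (SD, n = 5 each) with overlapping groups (log2 fold change 0.15, SE 0.05, edgeR adjusted p = 0.0363). The call was lost without WT tumor 2, 3 or 4 (adjusted p between 0.0620 and 0.0675) and under upper quartile or library size scaling. Without WT tumor 5, the tumor highest in fibroblast markers, 5 members were called higher (Mia3, Plod1, Plod2, P3h1 and Loxl2), and without D69A tumor 4, 3 were (Mia3, P3h1 and Crtap).

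Of 9 compared collagen receptors in a list of 10, 4 were lower and 5 passed in neither direction, with a median of -0.45, against 24.7% lower over all genes. Itga11, an integrin chain of fibroblasts that binds fibrillar collagen, averaged 0.545 ± 0.233 CPM in D69A tumors and 3.45 ± 1.95 CPM in WT tumors (SD, n = 5 each; a log2 fold change of -2.65 with an SE of 0.43, edgeR adjusted p = 0.00112). Mrc2, an endocytic receptor that takes up collagen fragments, was lower by 1.97 (SE 0.37), Lair1, an inhibitory collagen receptor of leukocytes, by 1.70 (SE 0.29) and Itga2 by 1.03 (SE 0.20) on the log2 scale. None of these 4 overlapped between the groups (17.4% of all genes had all D69A tumors below all WT tumors). The integrin and discoidin receptor genes Itgb1 (log2 fold change 0.07), Ddr1 (-0.05), Ddr2 (-0.09), Itga1 (0.15) and Itga10 (-0.45) did not pass, although Ddr2 was called lower without WT tumor 2 (edgeR adjusted p = 0.0226) and Itga10 without WT tumor 6 (0.0307).

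**Figure D5:**
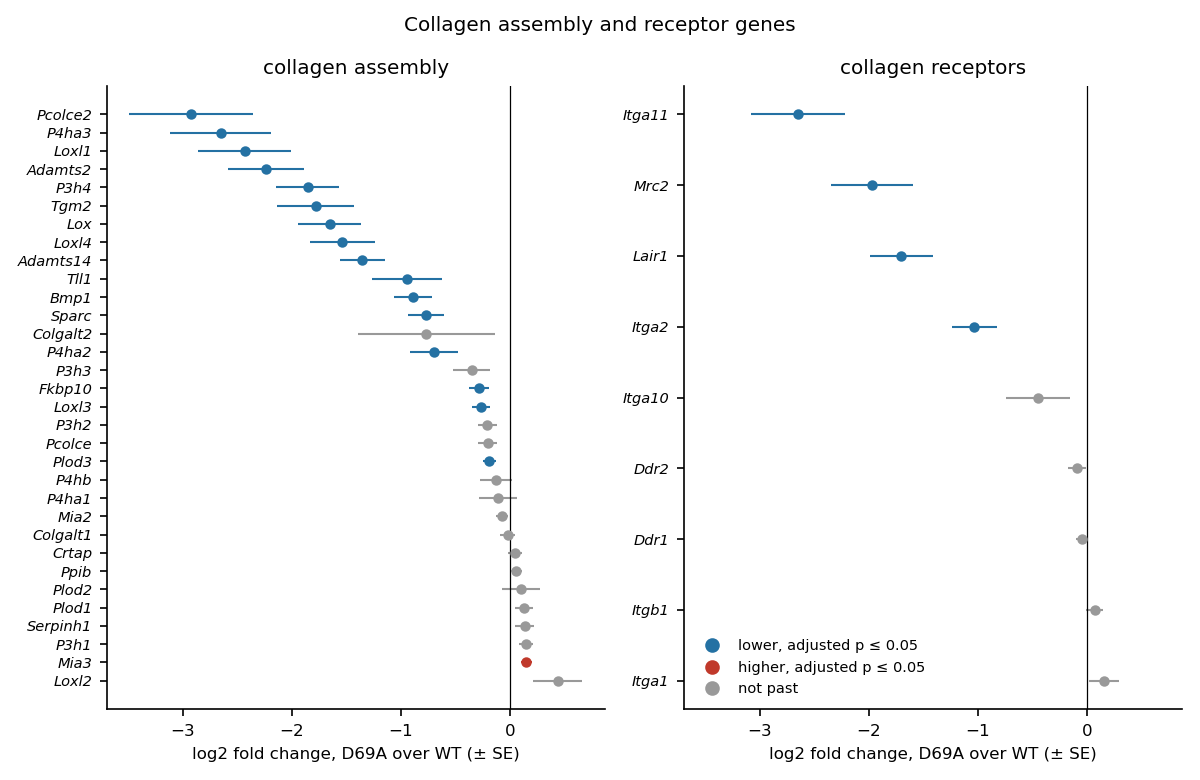
log2 fold change (D69A over WT, ± SE) of the compared genes for collagen assembly (left, 32 genes) and collagen receptors (right, 9 genes); blue marks lower, red higher and grey neither at an adjusted p of at most 0.05. The assembly panel holds 16 blue points, with the largest decreases in Pcolce2, P4ha3, Loxl1 and Adamts2.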

How the data were processed

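The authors deposited raw counts per Ensembl gene for 10 tumors, as unscaled whole numbers. Their tools, per the submitters' processing notes, were fastp, HISAT, Bowtie and RSEM, with mm10 as the build. What each tool did, the annotation, and how reads and strands were counted is not given in the sources used here. Since RSEM works with estimates, the values may have been rounded, and near-identical genes may share reads. Symbols and positions came from GENCODE mouse release 21, with which 17721 of the 17737 identifiers matched. Columns were assigned to tumors by name, and the smallest chi-square per degree of freedom between tumors of a group was 13.9, unlike a library sequenced again.

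Genes with a mean of at least 10 counts over all tumors were compared by the quasi-likelihood test of edgeR (4.0.16, under R 4.3.3) with TMM scaling and Benjamini-Hochberg adjustment over 13926 genes at a threshold of 0.05. SEs came from the F statistic, and the script was tested on simulated data. CPM used the TMM factors, and levels between genes were divided by the length of the principal transcript. Chain ratios, with 0.5 added to each count, were compared by two-sided exact permutation (SciPy 1.17.1) and adjusted over 8 pairs. Total counts lay between 25904345 and 37578722, so 3 counts came to between 0.0798 and 0.116 CPM.

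The members, classes, pairs and the assembly, receptor and marker lists were chosen with earlier results of these data known. The genes named are, within each class, the 8 with the highest CPM, the 3 largest changes in each direction and those against the majority, with the rest of the compared members named beside them; from the other lists, 6 assembly and 4 receptor genes with the smallest p and any against the majority. Sox9, Matn3, Acan, Comp, Matn1, Pdgfrb, Pcolce2, Tll1, Loxl3, P4ha2, Fkbp10, Plod3 and the assembly and receptor genes that did not pass were named after their values were seen. Alternatives were upper quartile and RLE scaling, no scaling beyond the library size, other count filters, DESeq2 1.42.0, limma-voom (limma 3.58.1) with and without sample weights, leaving out each tumor, a block for the replicate number, a stricter adjusted p of 0.01 and a test against a 1.5-fold change.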

Additional observations from a re-analysis of the deposited data

Results flagged for a closer look

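Within each group of 5 tumors, the gap between the highest or lowest tumor and its nearest neighbor was compared with the range of the group for every compared collagen gene and every chain ratio. In 10 of 90 groups of values (11.1%) 1 tumor stood apart, where chance gives about 1 in 20 for independent groups. Many collagen genes rose and fell together across tumors, so the 90 groups are not independent. The share therefore does not measure an excess over chance. In 8 of the 10 groups the tumor that stood apart was D69A tumor 1, which stood above the other D69A tumors. For the beaded filament chains it had 63.7 CPM of Col6a1, with the others between 11.1 and 18.1, then 60.3 CPM of Col6a2 (others 10.6 to 16.5), 54.6 CPM of Col6a3 (others 16.7 to 20.6) and 0.801 CPM of Col6a5 (others 0 to 0.163). For the multiplexins it had 46.6 CPM of Col15a1 (others 17.5 to 20.3) and 55.4 CPM of Col18a1 (others 29.2 to 36.4). It also had 30.9 CPM of Col16a1 (others 19.1 to 21.7) and 1.66 CPM of Col23a1 (others 0.118 to 0.279). D69A tumor 1 was the highest of its group in summed fibroblast, skeletal muscle and leukocyte markers, and the part of these in its collagen values was not tested. Among WT tumors, tumor 4 stood apart with 0.848 CPM of Col8a2, with the others between 0.362 and 0.497. The log2 count ratio of Col4a2 to Col4a1 was -0.28 in WT tumor 5, with the others between -0.43 and -0.40.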

How the results depend on the processing

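No collagen, assembly or receptor value reversed its direction past the threshold under any alternative run. The count of collagen genes lower in D69A tumors lay between 15 and 24 over all alternatives, with 20 to 24 when 1 tumor was left out. The count higher was 2 with a mean of at least 100 counts (22 members compared) and 1 against a fold of 1.5. Of the assembly genes, 9 were lower against a fold of 1.5, and 11 to 17 when 1 tumor was left out. Among them Tll1 lost its call in 7 of the runs without 1 tumor and Loxl3 in 6. The count higher was 0 under upper quartile scaling, library size only, a mean of at least 100 counts, a fold of 1.5, an adjusted p of 0.01 and when the 3 tumors highest in muscle markers were dropped, 3 under limma-voom with sample weights, and 0 to 5 when 1 tumor was left out. With a mean of at least 100 counts 2 receptors were lower. Over all genes, a fold of 1.5 left 1803 lower and 62 higher, and an adjusted p of 0.01 left 1334 higher.

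Tumors share a replicate number from 2 to 5. No label says that same-numbered tumors share a mouse, litter or batch, so the main fit held no block. Deviations of same-numbered tumors correlated at 0.176, -0.427, 0.2 and 0.178. Of WT tumors 2 to 5, the one with the same number correlated best with D69A tumors 2, 4 and 5, but not with D69A tumor 3. Whether the numbers pair tumors is thus not settled. As a replicate block over 4 numbers, where p cannot go below 0.125, the pair differences were 0.32 (Col1a2/Col1a1), -0.67 (Col5a2/Col5a1), 0.91 (Col6a3/Col6a1), 3.05 (Col4a1/Col1a1) and 1.43 (Col18a1/Col15a1), adjusted p = 0.2 by exact permutation. With the block in edgeR, Col11a2 and Col28a1 were not called and Col16a1 and Col18a1 were. Under a block, tumors whose number is not shared, D69A tumor 1 among them, cannot inform the comparison of the groups. The log2 fold changes were -0.573 for Col16a1 and -0.589 for Col18a1, against -0.521 and -0.580 when only D69A tumor 1 was left out. Leaving it out also changed the calls of Col11a2 and Col28a1 in the same way. An effect of pairing on these calls thus cannot be told from the loss of D69A tumor 1. Without the 3 tumors highest in muscle markers, where 4 against 3 cannot go below 0.0571, the same differences were 0.33, -0.66, 0.99, 3.04 and 1.32 (exact permutation adjusted p = 0.0914). Col20a1, Col11a2 and Col28a1 then lost their call (edgeR adjusted p = 0.0879, 0.113 and 0.176), while Col16a1 and Col18a1 gained one (0.0328 and 0.0109). Depth limits the members with the fewest counts, such as Col28a1 with 50 counts in all D69A tumors.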
